A study of Homo sapiens with 16 samples.

Results

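Gene expression was compared between Be(2)-C cells given only the EZH2 inhibitor EPZ-6438 and Be(2)-C cells given only its solvent, DMSO. Be(2)-C is an established human neuroblastoma line, a clonal subline with many copies of the oncogene MYCN. The comparison took the libraries by their labels, 2 of EPZ-6438 (1 µM for 96 h) and 2 of DMSO, neither with the DNA-demethylating drug DAC, which makes 4 of the 16 RNA-seq libraries of the series. All 15967 of 23459 listed genes that passed a filter on low counts were tested. The 4 libraries held between 11051893 and 11854641 counts. Levels are given as CPM, the usual count relative to library size, with no scaling to gene length. Changes are log2 ratios of EPZ-6438 over DMSO ± SE from edgeR's quasi-likelihood fit, and a gene counts as called where its adjusted p (Benjamini-Hochberg, over all tested genes) was under 0.05. No label says that the 2 libraries of a group came from separate cultures, so the spread behind every p-value is that between these libraries alone and may be technical. The other libraries came from Be(2)-C given DAC (1 µM for 72 h) or both drugs, and from a second neuroblastoma line, IMR5-75, given EPZ-6438, DAC, both drugs or DMSO.

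EZH2 is the usual catalytic subunit of Polycomb repressive complex PRC2, which methylates lysine 27 of histone H3 and keeps developmental genes silent. EPZ-6438, or tazemetostat, occupies the cofactor pocket of the enzyme, so the mark is lost mainly as new histones dilute it over cell divisions. In neuroblastoma, EZH2 is known for repressing differentiation and tumour suppressor genes. The drug acts on the protein, so the RNA of EZH2 does not check the treatment.

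EPZ-6438 moved genes in both directions, and the genes called higher and lower differed in level and size of change. In RNA from whole cultures, fewer cells in a state and less RNA per cell cannot be told apart. Of the 15967 genes, 1630 were called (10.2%), 855 of them higher (5.35%) and 775 lower (4.85%). The genes called higher had a median log2 change of 0.90, and 362 of them (42.3%) changed over 2-fold. The genes called lower had a median log2 change of -0.56, and 49 of them (6.32%) changed over 2-fold. A change over 4-fold was seen for 98 genes called higher and for 0 called lower. The median DMSO level was 7.17 CPM among genes called higher, 95.6 CPM among genes called lower and 19.4 CPM over all tested genes. Among the 571 genes above 300 CPM in DMSO, 0.876% were called higher and 18.0% lower, whereas among the 1910 genes between 3 and 10 CPM 10.1% were called higher and 0.628% lower. The DMSO level is also the denominator of the change, and its part in these shares was not tested. A fall is hard to detect at low levels: under 1 CPM in DMSO 0 of 2853 genes were called lower. In sum, the genes called higher took 30760 and 31409 CPM after EPZ-6438 against 19425 and 20330 CPM in DMSO. Those called lower took 83393 and 82203 CPM after EPZ-6438 against 128322 and 124913 CPM in DMSO. With 1 library left out, the calls fell to 287 higher and 291 lower without DMSO 1, to 347 and 321 without DMSO 2, and to 502 lower without EPZ-6438 2. In these fits 182 genes were called higher and 232 lower whichever of the 4 libraries was left out, and 0 genes were called in the opposite direction.

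**Figure D1:**
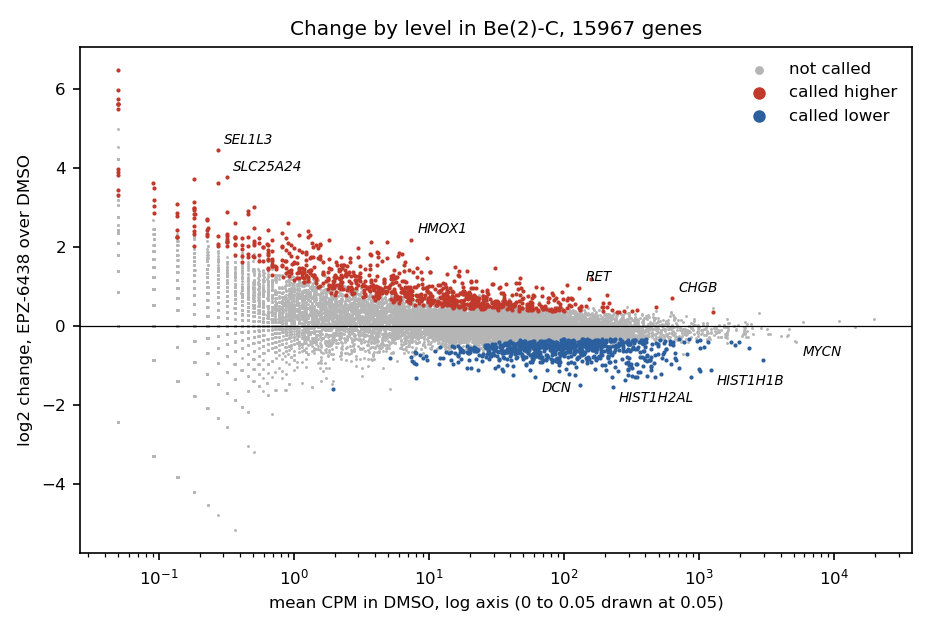
Each point is 1 of 15967 tested genes in Be(2)-C, with the mean CPM of the 2 DMSO libraries on a log x axis and the log2 change of EPZ-6438 over DMSO on the y axis. The 855 genes called higher (red) reach the largest changes at low DMSO levels, and the 775 called lower (blue) lie mostly above 10 CPM and never exceed a 4-fold change. The DMSO level on the x axis is also the denominator of the change on the y axis.

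The 4 libraries were not equally alike. Between EPZ-6438 1 and EPZ-6438 2 the counts differed by 14 times sampling noise (chi-square per degree of freedom), against 2.79 times between the DMSO libraries. Among 8918 genes at 10 CPM or more with a GENCODE 29 transcript, 473 differed over 1.5-fold between the EPZ-6438 libraries and 22 between the DMSO libraries. Across these genes the ratio of EPZ-6438 1 to EPZ-6438 2 moved with the GC content of the longest transcript (Spearman's rho 0.524) but hardly with its length (rho -0.02). The change of EPZ-6438 over DMSO moved with length (rho 0.396) and less with GC content (rho -0.171). The DMSO libraries also differed along length: the ratio of DMSO 1 to DMSO 2 had rho -0.292 with length and 0.102 with GC content. Genes within 1 library are not independent replicates, and these are descriptions. In the shortest of 5 equal bins of transcript length (70 to 2266 bases) 17.1% of genes were called lower and 2.02% higher, with a median change of -0.20. In the longest bin (6207 to 109224 bases) 1.74% were called lower and 9.59% higher, with a median of 0.12. The part of length or GC content in the results below was not tested. Median longest transcripts were 3326 bases for DNA replication genes, 2964 for mitosis genes and 496 for histone genes, against 3896 over all genes at this level. They were 5158 bases for neuronal maturation genes and 1872 for ribosomal protein genes, and 5438 for the genes called higher against 2503 for those called lower.

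**Figure D2:**
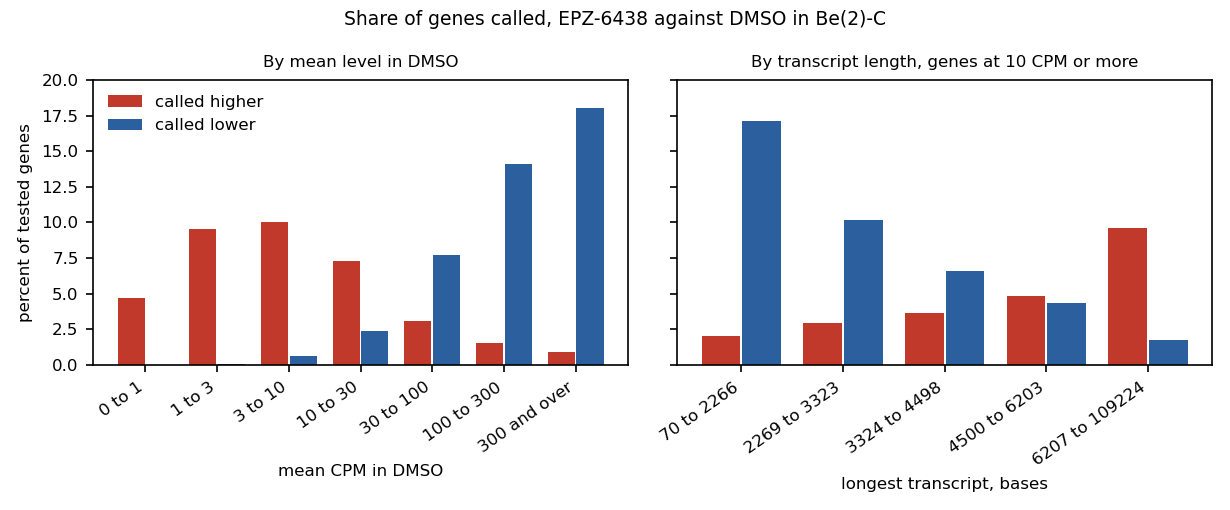
Bars give the percent of tested genes called higher (red) and lower (blue) after EPZ-6438 against DMSO in Be(2)-C, by mean CPM in DMSO (left) and by longest transcript among 8918 genes at 10 CPM or more (right). The share called lower climbs to 18.0% above 300 CPM and is 17.1% in the shortest transcripts, and the share called higher is 10.1% between 3 and 10 CPM and 9.59% in the longest. The DMSO level of the left panel is also the denominator of the change.

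Be(2)-C carried the markers of its type in both groups. All 11 noradrenergic neuroblastoma markers, DBH and TH among them, were above 1 CPM. They summed to 7224 and 5030 CPM after EPZ-6438 against 7621 and 7566 CPM in DMSO. Most of each sum was MYCN, with 4705 and 3209 CPM after EPZ-6438 against 5282 and 5196 CPM in DMSO, so the sums say little about the other markers. Of the 11 log2 changes, 4 were above 0 and 7 below. By edgeR 0 of these markers were called, with 1 higher and 3 lower at an unadjusted p under 0.05, and 2 lower by DESeq2. Without EPZ-6438 1 edgeR called 4 lower and without EPZ-6438 2 1 higher, and the low sum was that of EPZ-6438 2. Markers of other cells were scarce: 8 Schwann and glial markers summed to 12.1 and 11.5 CPM after EPZ-6438 against 10.5 and 8.63 CPM in DMSO, 8 haematopoietic markers to 4.63 and 3.33 against 4.89 and 4.41 CPM, and 6 endothelial markers to 1.54 and 1.11 against 1.63 and 1.84 CPM. Epithelial markers (8) summed to 9.44 and 8.70 CPM after EPZ-6438 against 8.79 and 5.97 CPM in DMSO, and melanocyte markers (5) to 23.9 and 21.9 against 21.2 and 23.0 CPM, mostly MITF. Among the defining genes, HBB of red cells and TYR of melanocytes were at 0 in all 4 libraries. Fibroblast markers (6), mainly THY1 and DCN, summed to 192 and 184 CPM after EPZ-6438 against 232 and 228 CPM in DMSO.

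Polycomb genes were called in both directions. Of 43 tested Polycomb genes 3 were called higher (6.98%, against 5.35% of all genes) and 5 lower (11.6%, against 4.85%), with a median of 0.00 against 0.02 over all genes. EZH2 itself had 62.7 and 69.1 CPM after EPZ-6438, against 98.97 and 97.4 CPM in DMSO (log2 change -0.57 ± 0.11, adjusted p = 0.00127). RBBP7, a histone-binding subunit of PRC2, had 135 and 151 CPM after EPZ-6438, against 219.5 and 212 CPM in DMSO (log2 change -0.60 ± 0.10, adjusted p = 0.000594). PHF19, which helps PRC2 dock at its targets, had 47.2 and 42.5 CPM after EPZ-6438, against 77.8 and 82.3 CPM in DMSO (log2 change -0.84 ± 0.13, adjusted p = 0.000242). In all 3 genes both EPZ-6438 libraries lay below both DMSO libraries, an order that 24.8% of all tested genes showed and that is common among called genes. Each of the 3 stayed called whichever library was left out. The other core subunits did not pass: EED had 25.7 and 26.5 CPM after EPZ-6438, against 34.7 and 33.5 CPM in DMSO (log2 change -0.39 ± 0.14, adjusted p = 0.0806), SUZ12 had 40.1 and 44.7 CPM after EPZ-6438, against 45.6 and 47.1 CPM in DMSO (log2 change -0.13 ± 0.14, adjusted p = 0.628). EZH1, the alternative catalytic subunit, had 39.1 and 34.6 CPM after EPZ-6438, against 33.7 and 36.8 CPM in DMSO (log2 change 0.06 ± 0.13, adjusted p = 0.816). Further calls, of JARID2 (a PRC2 cofactor, log2 change 0.40), PCGF5 (a PRC1 subunit, log2 change 0.75) and KDM6B (a demethylase of the same mark, log2 change 0.99), were higher. PCGF6 (another PRC1 subunit, log2 change -0.56) and WHSC1 (a lysine 36 methyltransferase, log2 change -0.47) were called lower. The call of JARID2 was lost whichever library was left out, that of PCGF5 without DMSO 1 or EPZ-6438 2, and those of KDM6B and PCGF6 without DMSO 1, DMSO 2 or EPZ-6438 1. The call of WHSC1 was lost without DMSO 1, DMSO 2 or EPZ-6438 2, and that of KDM6B also with the replicate number as a block.

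Most genes for DNA replication and cell division were lower after EPZ-6438. These genes rise and fall with the cell cycle: E2F factors control those of S phase, and the DREAM and B-MYB complexes those of mitosis. Of 60 tested DNA replication genes 49 were called lower (81.7%, against 4.85% of all genes) and 0 higher (median -0.68). In 56 both EPZ-6438 libraries lay below both DMSO libraries, an order that 24.8% of all tested genes showed. Of 93 mitosis genes 79 were called lower (84.9%) and 0 higher (median -0.66), and all 93 changes were below 0. At an unadjusted p under 0.05 edgeR gave 0 members of either list as higher, and DESeq2 also called 0 higher. Without DMSO 1 the counts were 33 replication and 53 mitosis genes, and without DMSO 2 they were 34 and 53. Without EPZ-6438 1 they were 36 and 58.

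For replication, the drop reached origin licensing (12 of 17 tested called lower), origin firing and the helicase (13 of 15), polymerases and clamp (19 of 22) and chromatin assembly (5 of 6). GINS2, a subunit of the CMG helicase, had 48.5 and 45.5 CPM after EPZ-6438, against 104 and 114 CPM in DMSO (log2 change -1.21 ± 0.12, adjusted p = 7.04e-06). CDC45, which joins the same helicase, had 51.8 and 59.6 CPM after EPZ-6438, against 107 and 106 CPM in DMSO (log2 change -0.94 ± 0.11, adjusted p = 2.24e-05). PCNA, the sliding clamp of the DNA polymerases, had 149.8 and 171 CPM after EPZ-6438, against 319 and 306 CPM in DMSO (log2 change -0.96 ± 0.11, adjusted p = 1.99e-05). All 3 were close to 2-fold lower in both EPZ-6438 libraries. Their groups did not overlap, an order that 24.8% of all tested genes showed in this direction. CHAF1B, of the chromatin assembly factor that loads histones on new DNA, had 18.2 and 16.9 CPM after EPZ-6438, against 41.5 and 41.8 CPM in DMSO (log2 change -1.25 ± 0.13, adjusted p = 1.2e-05). Outside the list, WDR76, a WD-repeat protein gene with one of the smallest p-values, had 46.6 and 50.1 CPM after EPZ-6438, against 98.97 and 106 CPM in DMSO (log2 change -1.09 ± 0.12, adjusted p = 1.67e-05). Some members missed the threshold, among them the origin kinase gene CDC7 with 71.4 and 89.9 CPM after EPZ-6438, against 102 and 103 CPM in DMSO (log2 change -0.35 ± 0.13, adjusted p = 0.0989) and the clamp loader gene RFC3 with 118 and 135 CPM after EPZ-6438, against 157 and 156 CPM in DMSO (log2 change -0.30 ± 0.13, adjusted p = 0.142).

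Enzymes that supply nucleotides were lower as well, in 11 of 22 cases (50%, against 4.85% of all genes) with 0 higher (median -0.42). TK1, thymidine kinase of S phase, had 43.1 and 39.2 CPM after EPZ-6438, against 91.6 and 90.6 CPM in DMSO (log2 change -1.15 ± 0.15, adjusted p = 5.91e-05). RRM2, the cell-cycle-bound subunit of ribonucleotide reductase, had 189.6 and 165 CPM after EPZ-6438, against 352 and 337 CPM in DMSO (log2 change -0.96 ± 0.12, adjusted p = 3.37e-05). Both genes kept EPZ-6438 and DMSO libraries apart by about 2-fold. DTYMK, a thymidylate kinase, had 88.5 and 98.7 CPM after EPZ-6438, against 168 and 158 CPM in DMSO (log2 change -0.80 ± 0.14, adjusted p = 0.000578). Without DMSO 1 the list had 6 genes called lower.

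Homologous recombination and Fanconi genes were called lower in 21 of 32 cases (65.6%, against 4.85% of all genes) and higher in 0 (median -0.53). PSMC3IP, a partner of the strand-exchange proteins, had 10.2 and 10.9 CPM after EPZ-6438, against 24.4 and 21.5 CPM in DMSO (log2 change -1.12 ± 0.16, adjusted p = 0.000107). UBE2T, the ubiquitin-conjugating enzyme of the Fanconi pathway, had 74.8 and 88.3 CPM after EPZ-6438, against 149 and 139 CPM in DMSO (log2 change -0.82 ± 0.12, adjusted p = 0.000106). BRCA2 had 61.5 and 68.7 CPM after EPZ-6438, against 85.6 and 92.3 CPM in DMSO (log2 change -0.45 ± 0.17, adjusted p = 0.0978) and did not pass. Its EPZ-6438 libraries were both below both DMSO libraries, as in 24.8% of all tested genes. The count depended on the library: 11 without DMSO 1, 8 without DMSO 2 and 11 without EPZ-6438 1.

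Mitosis genes fell across their roles: kinases and cyclins (16 of 19 tested), anaphase and checkpoint factors (10 of 12), spindle proteins and kinesins (24 of 28), and kinetochore and condensin proteins (29 of 34). NUSAP1, which bundles spindle microtubules, had 151 and 154 CPM after EPZ-6438, against 315 and 308 CPM in DMSO (log2 change -1.03 ± 0.11, adjusted p = 1.21e-05). KIF20A, a kinesin of cytokinesis, had 109 and 120.0 CPM after EPZ-6438, against 223 and 209.5 CPM in DMSO (log2 change -0.92 ± 0.11, adjusted p = 2.11e-05). CCNA2, or cyclin A2, had 142 and 165 CPM after EPZ-6438, against 297 and 311 CPM in DMSO (log2 change -0.98 ± 0.12, adjusted p = 2.27e-05). Levels in both EPZ-6438 libraries were close to 2-fold below those in DMSO for these genes. CDC25A, a phosphatase that activates cyclin-dependent kinases, had 41.3 and 50.9 CPM after EPZ-6438, against 89.3 and 93.4 CPM in DMSO (log2 change -0.99 ± 0.12, adjusted p = 2.93e-05). The 2 members with the highest CPM that were not called were ASPM with 234 and 256 CPM after EPZ-6438, against 326 and 336 CPM in DMSO (log2 change -0.43 ± 0.16, adjusted p = 0.0879) and CKAP5 with 213 and 255 CPM after EPZ-6438, against 286 and 295 CPM in DMSO (log2 change -0.31 ± 0.12, adjusted p = 0.116). These too had both EPZ-6438 libraries below both DMSO libraries, an order that 24.8% of all tested genes showed.

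The regulators of entry into S phase moved less uniformly (median -0.19). Of 33 genes 2 were called higher (6.06%, against 5.35% of all genes) and 12 lower (36.4%, against 4.85%). E2F1 had 93.7 and 95.6 CPM after EPZ-6438, against 201 and 211 CPM in DMSO (log2 change -1.12 ± 0.13, adjusted p = 2.24e-05). E2F2 had 18.8 and 12.8 CPM after EPZ-6438, against 37.8 and 32.5 CPM in DMSO (log2 change -1.15 ± 0.17, adjusted p = 0.000199). CDK2 had 32.96 and 32.8 CPM after EPZ-6438, against 61.5 and 55.9 CPM in DMSO (log2 change -0.84 ± 0.11, adjusted p = 7.15e-05). The CDK inhibitor gene CDKN2C had 39.3 and 36.3 CPM after EPZ-6438, against 72.05 and 66.7 CPM in DMSO (log2 change -0.88 ± 0.12, adjusted p = 6.11e-05). CDKN1A, which encodes p21, was not called, with 11.3 and 7.77 CPM after EPZ-6438, against 7.07 and 11.02 CPM in DMSO (log2 change 0.08 ± 0.20, adjusted p = 0.855). Its groups overlapped. CDK6, a kinase of G1, was not called either, with 622 and 618 CPM after EPZ-6438, against 456 and 499 CPM in DMSO (log2 change 0.37 ± 0.16, adjusted p = 0.141). Its EPZ-6438 libraries were both above both DMSO libraries, an order that 29.3% of all tested genes showed. The 12 lower calls became 7 without DMSO 1, 6 without DMSO 2, and 8 without either EPZ-6438 library.

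Replication-dependent histone genes, which are transcribed in S phase and whose mRNAs lack poly(A) tails, gave the lowest median of the gene lists tested here. Ribosomal RNA depletion keeps such RNA in the libraries. Of 60 tested genes 53 were called lower (88.3%, against 4.85% of all genes) and 0 higher (median -1.02, or -0.97 with genes without counts set at their bound). Together they took 11000 and 9254 CPM after EPZ-6438 against 21538 and 19824 CPM in DMSO. All 5 kinds of histone took part: H1 (4 of 5 called lower), H2A (12 of 14), H2B (17 of 18), H3 (11 of 11) and H4 (9 of 12). Copies of these genes are nearly identical, so reads can be exchanged among them and single-gene values are uncertain. HIST1H2BE had 132 and 117 CPM after EPZ-6438, against 328 and 263 CPM in DMSO (log2 change -1.25 ± 0.13, adjusted p = 9.55e-06). HIST1H3C had 167 and 118 CPM after EPZ-6438, against 364 and 334 CPM in DMSO (log2 change -1.29 ± 0.16, adjusted p = 3.02e-05). HIST1H1B, a linker histone, had 609 and 507 CPM after EPZ-6438, against 1244 and 1182 CPM in DMSO (log2 change -1.12 ± 0.16, adjusted p = 0.000126). The EPZ-6438 libraries were about equal in HIST1H2BE but apart in others. HIST1H2AL had 102 and 52.7 CPM after EPZ-6438, against 229 and 228 CPM in DMSO (log2 change -1.56 ± 0.21, adjusted p = 5.92e-05). HIST1H2BM had 67.7 and 24.7 CPM after EPZ-6438, against 141 and 120.4 CPM in DMSO (log2 change -1.50 ± 0.26, adjusted p = 0.000722; log2 change -2.40 without EPZ-6438 1). HIST1H1E had 517 and 186 CPM after EPZ-6438, against 895 and 836 CPM in DMSO (log2 change -1.30 ± 0.29, adjusted p = 0.00628; log2 change -2.22 without EPZ-6438 1), a call lost in a fit of only the groups compared. EPZ-6438 2 was thus below EPZ-6438 1 in these 3 genes, while both lay under the DMSO libraries.

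The promoters of these lists differ in known regulatory letters, and 8 that hold such letters are shown: helicase and E2F genes with an E2F word, mitosis genes with a CHR element, and histone genes with CCAAT boxes. They were chosen, after their values were seen, among genes with 1 listed start. The sequences are the 250 bases before the transcription start, written 5′ to 3′ on the gene's strand, from RefSeq's table for GRCh38.p14. Their changes were -1.21 for GINS2, -0.75 for MCM6, -0.67 for MCM3, -1.15 for E2F2, -0.84 for CCNB2, -0.91 for CDC20, -1.50 for HIST1H2BM and -1.29 for HIST1H3C on the log2 scale, all called lower. In the first 4, capitals mark an E2F word, one of TTTCCCGC, TTTCGCGC, TTTGCCGC or TTTGGCGC on either strand, where overlapping words make 1 stretch.
GINS2 (chr16:85688955-85689204, minus strand): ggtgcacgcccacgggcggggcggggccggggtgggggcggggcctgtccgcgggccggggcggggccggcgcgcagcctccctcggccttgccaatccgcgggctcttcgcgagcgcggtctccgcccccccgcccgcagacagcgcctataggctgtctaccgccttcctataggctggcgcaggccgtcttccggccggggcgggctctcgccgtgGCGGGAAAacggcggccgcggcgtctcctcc
MCM6 (chr2:135876444-135876693, minus strand): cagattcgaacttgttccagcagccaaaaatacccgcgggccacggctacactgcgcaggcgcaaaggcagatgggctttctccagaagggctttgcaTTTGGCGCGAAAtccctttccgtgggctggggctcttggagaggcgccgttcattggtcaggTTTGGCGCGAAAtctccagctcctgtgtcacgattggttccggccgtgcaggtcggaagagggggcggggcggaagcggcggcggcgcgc
MCM3 (chr6:52284743-52284992, minus strand): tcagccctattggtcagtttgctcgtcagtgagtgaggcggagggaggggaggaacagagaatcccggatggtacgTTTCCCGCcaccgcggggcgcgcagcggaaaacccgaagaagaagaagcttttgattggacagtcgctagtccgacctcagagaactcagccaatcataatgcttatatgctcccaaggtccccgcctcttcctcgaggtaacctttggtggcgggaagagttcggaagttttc
E2F2 (chr1:23531234-23531483, minus strand): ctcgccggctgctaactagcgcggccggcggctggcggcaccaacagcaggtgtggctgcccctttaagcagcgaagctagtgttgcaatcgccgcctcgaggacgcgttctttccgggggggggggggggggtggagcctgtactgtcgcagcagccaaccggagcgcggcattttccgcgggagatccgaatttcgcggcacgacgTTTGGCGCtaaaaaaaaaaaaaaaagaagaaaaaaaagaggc
In the next 2, capitals mark the CHR letters TTTGAA and the box CCAAT, on either strand.
CCNB2 (chr15:59104896-59105145, plus strand): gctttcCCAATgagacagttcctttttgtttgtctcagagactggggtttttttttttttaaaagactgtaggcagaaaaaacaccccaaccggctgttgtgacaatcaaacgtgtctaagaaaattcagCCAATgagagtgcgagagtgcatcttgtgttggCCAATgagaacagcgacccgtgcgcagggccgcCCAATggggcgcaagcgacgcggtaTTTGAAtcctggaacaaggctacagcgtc
CDC20 (chr1:43358731-43358980, plus strand): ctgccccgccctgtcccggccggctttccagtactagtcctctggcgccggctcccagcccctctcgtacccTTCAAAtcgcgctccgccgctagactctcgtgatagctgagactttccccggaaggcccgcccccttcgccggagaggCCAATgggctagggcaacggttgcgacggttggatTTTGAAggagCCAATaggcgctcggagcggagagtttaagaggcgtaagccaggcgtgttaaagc
In the last 2, capitals mark CCAAT on either strand.
HIST1H2BM (chr6:27814772-27815021, plus strand): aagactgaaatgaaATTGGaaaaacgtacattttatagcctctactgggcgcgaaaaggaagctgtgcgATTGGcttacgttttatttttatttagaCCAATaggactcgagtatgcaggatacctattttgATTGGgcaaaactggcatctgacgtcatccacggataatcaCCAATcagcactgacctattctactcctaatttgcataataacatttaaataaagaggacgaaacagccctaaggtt
HIST1H3C (chr6:26045134-26045383, plus strand): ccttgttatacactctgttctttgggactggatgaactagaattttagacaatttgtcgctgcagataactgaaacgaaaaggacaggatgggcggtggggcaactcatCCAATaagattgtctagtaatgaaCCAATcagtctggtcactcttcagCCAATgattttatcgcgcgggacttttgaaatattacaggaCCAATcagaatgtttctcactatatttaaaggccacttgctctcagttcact
The E2F word of GINS2 began 31 bases before the start. In CCNB2 the CHR letters began 29 bases before the start, and CDC20 held them at 178 and 65 bases. Unmarked, HIST1H2BM also held an E2F word at 202 bases and HIST1H3C CHR letters at 69 bases, so the kinds of letters were not exclusive to a list.

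Counted over all 8420 tested genes with 1 listed start, from 250 bases before to 50 after it, the letters were unevenly spread. An E2F word stood in 15.7% of 477 promoters of genes called lower, 3.78% of 423 of genes called higher and 5.30% of all. In DNA replication genes the share was 46.3% (19 of 41), in histone genes 30.4% (14 of 46) and in mitosis genes 7.69% (5 of 65). CHR letters stood in 20.5% of promoters of genes called lower, 9.46% of genes called higher and 9.67% of all, and in 67.7% (44 of 65) of mitosis genes but 4.88% (2 of 41) of replication genes. CCAAT stood in 51.8% of promoters of genes called lower, 35.5% of genes called higher and 37.3% of all, with 84.8% (39 of 46) in histone genes. Among the 325 genes called lower outside the cell-cycle lists, an E2F word stood in 9.85% and CHR letters in 11.4%. Promoters of genes called higher had a median CpG observed-to-expected ratio of 0.803, against 0.908 for genes called lower and 0.843 for all. These are matches of letters, not measured binding sites.

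**Figure D3:**
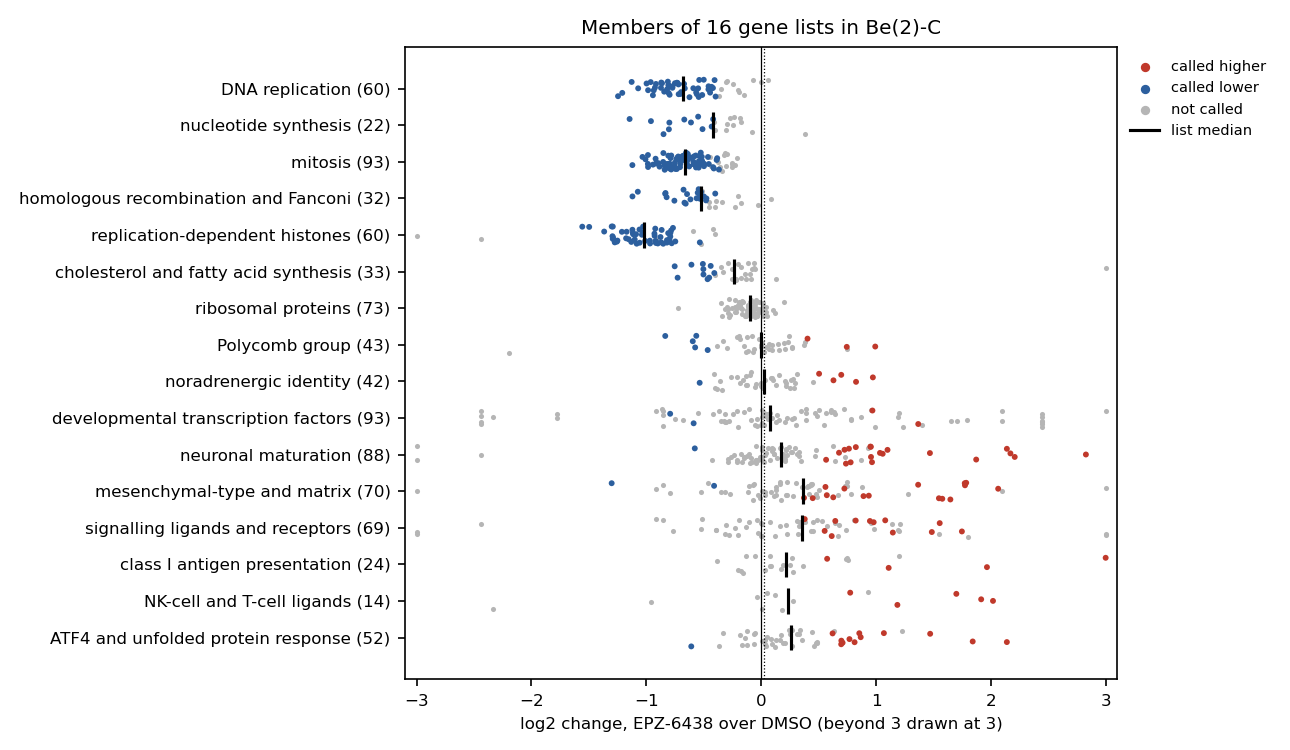
Each point is a tested member of 1 of 16 gene lists, placed by its log2 change of EPZ-6438 over DMSO in Be(2)-C (beyond 3 drawn at 3), red where called higher, blue where called lower and grey where not called; black bars are list medians and the dotted line is the median of all genes. Replication, mitosis and histone genes lie left of 0, with medians of -0.68, -0.66 and -1.02, while the red points of the neuronal, mesenchymal-type and signalling lists lie among many grey ones.

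The largest rises were in genes that Be(2)-C scarcely transcribed in DMSO. SEL1L3 had 5.99 and 6.39 CPM after EPZ-6438, against 0.272 and 0.275 CPM in DMSO (log2 change 4.45 ± 0.37, adjusted p = 1.25e-06). SLC25A24, a mitochondrial ATP and phosphate carrier, had 3.36 and 5.64 CPM after EPZ-6438, against 0.634 and 0 CPM in DMSO (log2 change 3.77 ± 0.50, adjusted p = 5.91e-05; log2 change 8.77 without DMSO 1 and 2.80 without DMSO 2). Without DMSO 1 the only DMSO library left held 0 CPM of SLC25A24, so the 8.77 depends on a prior count and is no bound. DNAH6, an axonemal dynein of cilia, had 3.81 and 4.44 CPM after EPZ-6438, against 0.363 and 0.643 CPM in DMSO (log2 change 3.01 ± 0.38, adjusted p = 4.18e-05). In each of these genes the lower EPZ-6438 library was over 5-fold above the higher DMSO library. CPE, carboxypeptidase E, which trims peptide hormones in secretory granules, had 4.90 and 6.39 CPM after EPZ-6438, against 1.36 and 0.459 CPM in DMSO (log2 change 2.61 ± 0.31, adjusted p = 2.27e-05; log2 change 3.57 without DMSO 1). YES1, a kinase of the SRC family, had 6.99 and 6.11 CPM after EPZ-6438, against 1.18 and 1.47 CPM in DMSO (log2 change 2.30 ± 0.27, adjusted p = 2.15e-05). GRB10, an adaptor that restrains insulin receptor signalling, had 5.90 and 4.997 CPM after EPZ-6438, against 0.725 and 1.47 CPM in DMSO (log2 change 2.31 ± 0.38, adjusted p = 0.000484; log2 change 2.89 without DMSO 2). These 3 stood at single-digit CPM. Genes with the largest changes were named only where the groups did not overlap, so that order was set by the choice. CHODL, a membrane lectin of motor neurons, had 19.3 and 24.1 CPM after EPZ-6438, against 5.44 and 6.61 CPM in DMSO (log2 change 1.85 ± 0.18, adjusted p = 5.16e-06). PAK3, a kinase of dendritic spines, had 11.5 and 11.9 CPM after EPZ-6438, against 2.63 and 3.31 CPM in DMSO (log2 change 1.98 ± 0.20, adjusted p = 7.54e-06). Both of these kept their groups apart at somewhat higher levels. FSTL1, a secreted glycoprotein, had 21.5 and 23.6 CPM after EPZ-6438, against 6.71 and 9.55 CPM in DMSO (log2 change 1.47 ± 0.15, adjusted p = 9.22e-06). SERPINE2, a secreted protease inhibitor, had 13.3 and 12.6 CPM after EPZ-6438, against 3.35 and 3.95 CPM in DMSO (log2 change 1.83 ± 0.19, adjusted p = 9.55e-06).

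Some genes rose from at most 3 counts over both DMSO libraries, where a fold rests on few reads and intervals cover counting error only. CD33, a sialic-acid receptor of myeloid cells, had 20 counts over the EPZ-6438 libraries and 0 over the DMSO libraries, at least 6.70-fold higher against a floor of 3 counts over the group, and its call was lost without either DMSO library. F2R, the thrombin receptor, had 19 counts against 1 (ratio 19.1, 95% exact interval 3.03 to 793). ALPK1, a kinase of innate immunity, had 27 against 2 (ratio 13.6, interval 3.41 to 118). The call of F2R was lost without DMSO 1, and that of ALPK1 held in all 4 fits. HERC6, an interferon-induced ligase, had 18 against 1 (ratio 18.1, interval 2.86 to 754), with its call lost without DMSO 2. In the opposite direction, ABCA13, a transporter, had 1 count after EPZ-6438 against 11 in DMSO (ratio 0.0913, interval 0.00212 to 0.628) and was not called.

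**Figure D4:**
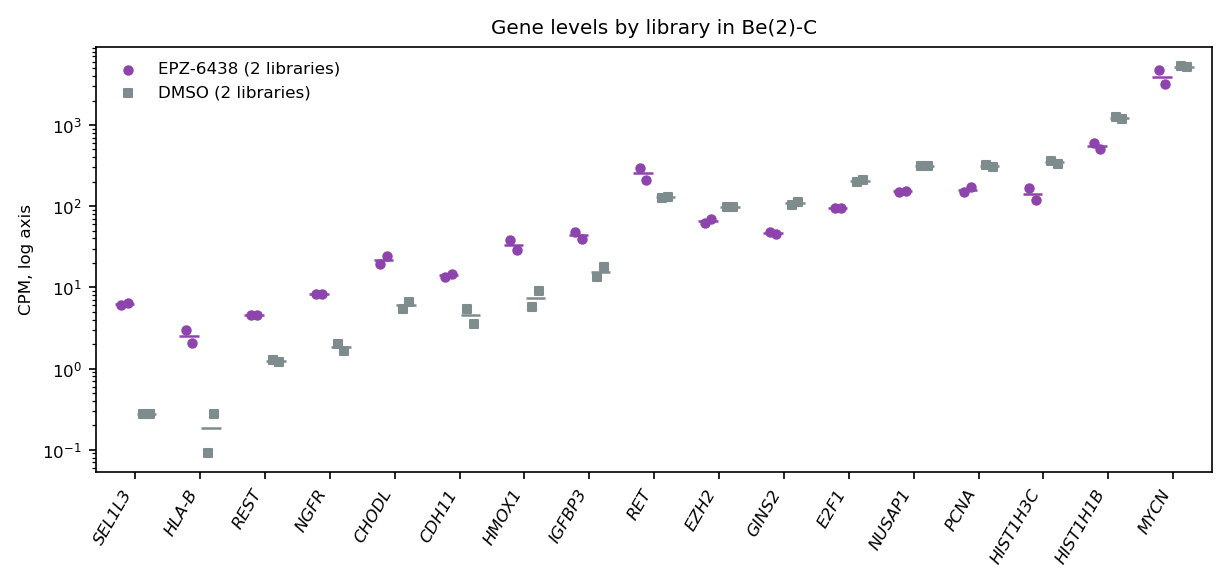
Points are the CPM of single Be(2)-C libraries on a log axis for 17 genes, EPZ-6438 (purple circles, left) and DMSO (grey squares, right), with lines at the group means (n = 2 each). SEL1L3 to RET lie higher after EPZ-6438 and EZH2 to HIST1H1B lower, with no overlap between groups, and MYCN has 4705 and 3209 CPM after EPZ-6438 against 5282 and 5196 CPM in DMSO.

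Genes of neuronal maturation were called higher in part. Of 88 tested 20 were called higher (22.7%, against 5.35% of all genes) and 1 lower (1.14%, against 4.85%), with a median of 0.18 against 0.02 for all genes. Most of the calls were receptors, channels and guidance proteins (13 of 32 higher), against 3 of 18 cytoskeletal and 2 of 21 synaptic genes. NGFR, the low-affinity neurotrophin receptor, had 8.17 and 8.33 CPM after EPZ-6438, against 1.99 and 1.65 CPM in DMSO (log2 change 2.17 ± 0.36, adjusted p = 0.00044). The EPZ-6438 libraries lay close together and above both DMSO libraries. DCX, a microtubule protein of migrating neurons, had 117 and 82.6 CPM after EPZ-6438, against 42.3 and 50.7 CPM in DMSO (log2 change 1.10 ± 0.17, adjusted p = 0.000221). REST, which represses neuronal genes, was itself higher, with 4.54 and 4.53 CPM after EPZ-6438, against 1.27 and 1.19 CPM in DMSO (log2 change 1.87 ± 0.30, adjusted p = 0.00033). Among the members not called, the 2 with the highest CPM were TUBA1A with 1724 and 2147 CPM after EPZ-6438, against 2139 and 2161 CPM in DMSO (log2 change -0.15 ± 0.12, adjusted p = 0.481) and STMN2 with 1152 and 1274 CPM after EPZ-6438, against 1147 and 1151 CPM in DMSO (log2 change 0.08 ± 0.12, adjusted p = 0.76). The higher calls became 10 without DMSO 1 and 12 without DMSO 2.

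Genes of noradrenergic identity moved little as a list. Of 42 genes 5 were called higher (11.9%, against 5.35% of all genes) and 1 lower (2.38%, against 4.85%), with a median of 0.03. Of the 18 transcription factors among them 1 was called in each direction. RET, a receptor tyrosine kinase of sympathetic neurons, had 299 and 207 CPM after EPZ-6438, against 128 and 130.0 CPM in DMSO (log2 change 0.97 ± 0.17, adjusted p = 0.000828). CHGB, a protein of secretory granules, had 1050.3 and 988 CPM after EPZ-6438, against 649.6 and 607 CPM in DMSO (log2 change 0.70 ± 0.13, adjusted p = 0.00121). SATB1, a chromatin organiser, had 30.5 and 29.5 CPM after EPZ-6438, against 16.5 and 17.4 CPM in DMSO (log2 change 0.83 ± 0.15, adjusted p = 0.000755). RET, CHGB and SATB1 were thus higher in both EPZ-6438 libraries than in either DMSO library, an order that 29.3% of all tested genes showed. MYCN had 4705 and 3209 CPM after EPZ-6438, against 5282 and 5196 CPM in DMSO (log2 change -0.40 ± 0.14, adjusted p = 0.0765) and HAND2 had 665 and 597 CPM after EPZ-6438, against 806 and 793 CPM in DMSO (log2 change -0.34 ± 0.12, adjusted p = 0.066), neither of them called, though DESeq2 and a fit without the low-count filter called both lower. Without EPZ-6438 1, the list had 5 genes called higher and 5 lower, MYCN among the lower. The higher calls became 3 without DMSO 1 or without DMSO 2.

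Genes of mesenchymal-type cells and of the matrix were called higher in 16 of 70 cases (22.9%, against 5.35% of all genes). They were called lower in 2 (2.86%, against 4.85%), with a median of 0.36. The higher calls were most often matrix proteins (9 of 30). CDH11, a cadherin of mesenchyme, had 13.5 and 14.8 CPM after EPZ-6438, against 5.44 and 3.58 CPM in DMSO (log2 change 1.65 ± 0.19, adjusted p = 2.15e-05). FN1, or fibronectin, had 27.8 and 24.7 CPM after EPZ-6438, against 10.5 and 9.82 CPM in DMSO (log2 change 1.37 ± 0.17, adjusted p = 2.72e-05). COL4A2, a basement membrane collagen, had 4.09 and 2.50 CPM after EPZ-6438, against 1.27 and 0.643 CPM in DMSO (log2 change 1.77 ± 0.33, adjusted p = 0.00133). All 3 were higher in both EPZ-6438 libraries, COL4A2 at the lowest level. DCN, the matrix proteoglycan decorin, went against the list with 25.1 and 24.5 CPM after EPZ-6438, against 63.4 and 59.04 CPM in DMSO (log2 change -1.30 ± 0.14, adjusted p = 1.21e-05). It was the only gene outside the histones among the 12 lowest called changes once genes under a mean log2 CPM of 1 and genes with overlapping groups were left out. VIM, a classical mesenchymal gene, was not called, with 292 and 233 CPM after EPZ-6438, against 198 and 226 CPM in DMSO (log2 change 0.31 ± 0.13, adjusted p = 0.132), but was called without EPZ-6438 2. CD44 was not called either, with 32.9 and 25.8 CPM after EPZ-6438, against 20.8 and 23.05 CPM in DMSO (log2 change 0.42 ± 0.16, adjusted p = 0.0946). TWIST1, a transcription factor of mesenchyme, was called lower, with 107 and 115 CPM after EPZ-6438, against 153 and 142 CPM in DMSO (log2 change -0.41 ± 0.13, adjusted p = 0.0469), a call lost whichever library was left out and with the replicate number as a block. The 8 mesenchymal-type markers thus gave 1 call in each direction, FN1 higher and TWIST1 lower. Summed over these 8 markers, levels were 473 and 407 CPM after EPZ-6438 against 395 and 413 CPM in DMSO, so the groups overlapped. The higher calls became 5 without DMSO 1 and 7 without DMSO 2.

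Signalling genes that Polycomb commonly controls in development were called higher in 12 of 69 cases (17.4%, against 5.35% of all genes) and lower in 0 (median 0.36). WNT6, a secreted WNT ligand, had 10.4 and 9.53 CPM after EPZ-6438, against 2.27 and 3.67 CPM in DMSO (log2 change 1.75 ± 0.28, adjusted p = 0.000385). Binding proteins of insulin-like growth factors stood out by their level: IGFBP3 had 47.8 and 39.9 CPM after EPZ-6438, against 13.4 and 17.9 CPM in DMSO (log2 change 1.49 ± 0.18, adjusted p = 3.17e-05), IGFBP7 had 84.1 and 101 CPM after EPZ-6438, against 45.04 and 42.6 CPM in DMSO (log2 change 1.08 ± 0.14, adjusted p = 4.96e-05) and IGFBP5 had 158 and 131 CPM after EPZ-6438, against 77.4 and 85.9 CPM in DMSO (log2 change 0.82 ± 0.13, adjusted p = 0.000295). All 4 kept their call whichever library was left out. IGFBP2 had 302 and 259.8 CPM after EPZ-6438, against 399 and 405 CPM in DMSO (log2 change -0.52 ± 0.19, adjusted p = 0.0862) and was not called. Its EPZ-6438 libraries were both below both DMSO libraries, as in 24.8% of all tested genes. The higher calls became 5 without DMSO 1, 5 without DMSO 2 and 8 without EPZ-6438 1.

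Developmental transcription factors, the textbook targets of PRC2, gave few calls. Only 93 of 157 passed the filter on low counts. Of these 2 were called higher (2.15%, against 5.35% of all genes) and 2 lower (2.15%, against 4.85%), with a median of 0.08. Genes just above that filter rest on few counts, where a call is hard to reach. HOXD13, a limb patterning factor, had 3.72 and 3.98 CPM after EPZ-6438, against 1.63 and 2.30 CPM in DMSO (log2 change 0.97 ± 0.25, adjusted p = 0.0149). MSX1 had 2.72 and 2.96 CPM after EPZ-6438, against 1.18 and 1.01 CPM in DMSO (log2 change 1.37 ± 0.39, adjusted p = 0.0274). SOX2 had 4.18 and 4.35 CPM after EPZ-6438, against 7.34 and 7.44 CPM in DMSO (log2 change -0.79 ± 0.20, adjusted p = 0.0118). NKX6-1 had 14.98 and 12.7 CPM after EPZ-6438, against 21.1 and 20.5 CPM in DMSO (log2 change -0.59 ± 0.18, adjusted p = 0.0461). The calls of MSX1, SOX2 and NKX6-1 were lost whichever library was left out, and that of HOXD13 without DMSO 1 or EPZ-6438 2 or in a fit of only the groups compared. TBX3, an abundant member that was not called, had 331 and 302 CPM after EPZ-6438, against 268 and 275 CPM in DMSO (log2 change 0.22 ± 0.12, adjusted p = 0.259).

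Immune recognition genes were called higher in part. Of 24 genes of class I antigen presentation 4 were called higher (16.7%, against 5.35% of all genes) and 0 lower (median 0.22). Of the higher calls 3 were among the 5 tested heavy and light chain genes. HLA-B had 2.996 and 2.04 CPM after EPZ-6438, against 0.0906 and 0.275 CPM in DMSO (log2 change 3.71 ± 0.69, adjusted p = 0.00147; log2 change 3.13 without DMSO 1 and 4.65 without DMSO 2), and DESeq2 gave it no adjusted p. HLA-C had 42.4 and 45.9 CPM after EPZ-6438, against 19.03 and 21.9 CPM in DMSO (log2 change 1.11 ± 0.17, adjusted p = 0.0002). HLA-E had 5.36 and 6.48 CPM after EPZ-6438, against 0.997 and 2.02 CPM in DMSO (log2 change 1.97 ± 0.31, adjusted p = 0.000295; log2 change 2.56 without DMSO 2). B2M, the shared light chain, had 484 and 609.9 CPM after EPZ-6438, against 642 and 615 CPM in DMSO (log2 change -0.20 ± 0.13, adjusted p = 0.366) and was not called. The classical HLA genes are similar in sequence and can exchange reads. Of the listed ligands of the NK-cell receptor NKG2D, ULBP1, ULBP2 and ULBP3 were called higher. RAET1G was not called, with 1 count over the EPZ-6438 libraries against 6 over the DMSO libraries, and MICA, MICB, RAET1E and RAET1L, with at most 5 counts over a group, did not pass the filter. ULBP1 had 3.45 and 3.15 CPM after EPZ-6438, against 0.816 and 0.918 CPM in DMSO (log2 change 1.92 ± 0.37, adjusted p = 0.0018), and ULBP2 and ULBP3 were called at log2 changes of 1.70 and 2.02, both lost without DMSO 2, the call of ULBP2 also without EPZ-6438 1 and that of ULBP3 also without EPZ-6438 2 (ULBP3 had a log2 change of 2.71 without DMSO 1). In the list of 14 NK-cell and T-cell ligands 5 were called higher (35.7%, against 5.35% of all genes) and 0 lower (median 0.23). The higher calls became fewer whichever library was left out. Interferon response genes gave 3 of 32 higher (9.38%, against 5.35% of all genes) and 0 lower (median 0.33), with 1 higher without DMSO 1 and 0 in a fit of only the groups compared.

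Stress genes rose in part. In the ATF4 and unfolded protein response list 12 of 52 were called higher (23.1%, against 5.35% of all genes), 10 of the 12 from the ATF4 axis. In the same list 1 was called lower (1.92%, against 4.85%), and the median was 0.26. INHBE, an activin subunit induced by amino acid stress, had 15.9 and 16.7 CPM after EPZ-6438, against 3.35 and 4.04 CPM in DMSO (log2 change 2.14 ± 0.29, adjusted p = 7.09e-05). SLC7A11, the cystine importer, had 90.2 and 80.7 CPM after EPZ-6438, against 26.2 and 35.4 CPM in DMSO (log2 change 1.47 ± 0.24, adjusted p = 0.000469). SEL1L, of the pathway that clears misfolded proteins, had 134 and 149 CPM after EPZ-6438, against 81.7 and 92.6 CPM in DMSO (log2 change 0.70 ± 0.12, adjusted p = 0.000693). The ATF4 gene itself had 560.3 and 502 CPM after EPZ-6438, against 589.6 and 603 CPM in DMSO (log2 change -0.17 ± 0.12, adjusted p = 0.415) and was not called. HMOX1, or haem oxygenase, had 37.9 and 29.2 CPM after EPZ-6438, against 5.80 and 8.91 CPM in DMSO (log2 change 2.19 ± 0.29, adjusted p = 5.92e-05) as the clearest of 5 higher calls among 29 oxidative defence genes (17.2%, against 5.35% of all genes), while TXNRD1 had 413 and 529 CPM after EPZ-6438, against 467 and 482 CPM in DMSO (log2 change -0.01 ± 0.13, adjusted p = 0.982). The 12 calls of the ATF4 list became 4 without DMSO 1, 7 without EPZ-6438 1 and 17 without EPZ-6438 2, and the 5 of oxidative defence became 2 without DMSO 1 and 3 without DMSO 2.

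Genes of p53 gave 7 of 29 higher (24.1%, against 5.35% of all genes) and 2 lower (6.90%, against 4.85%), with a median of 0.07. Genes of cell death gave 6 of 30 higher (20%) and 0 lower (median 0.18). TP53INP1, a p53-inducible autophagy gene, had 43.6 and 43.8 CPM after EPZ-6438, against 15.2 and 18.2 CPM in DMSO (log2 change 1.39 ± 0.18, adjusted p = 4.91e-05). BCL2, the inhibitor of apoptosis, had 102 and 101 CPM after EPZ-6438, against 54.2 and 64.4 CPM in DMSO (log2 change 0.78 ± 0.13, adjusted p = 0.000521). CASP6, an executioner caspase, had 1.63 and 1.67 CPM after EPZ-6438, against 0.272 and 0.367 CPM in DMSO (log2 change 2.33 ± 0.43, adjusted p = 0.00115). MDM2, a main target of p53, had 123 and 145 CPM after EPZ-6438, against 128 and 127 CPM in DMSO (log2 change 0.07 ± 0.15, adjusted p = 0.825). Without DMSO 1, 1 p53 target was called higher and 1 lower, and without DMSO 2 3 apoptosis genes were called higher.

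Metabolic lists leaned lower. Cholesterol and fatty acid synthesis had 10 of 33 called lower (30.3%, against 4.85% of all genes) and 0 higher (median -0.23). ACAT2, an early enzyme of the pathway, had 40.6 and 49.2 CPM after EPZ-6438, against 74.3 and 74.4 CPM in DMSO (log2 change -0.73 ± 0.12, adjusted p = 0.000368). FDPS had 97.1 and 99.1 CPM after EPZ-6438, against 154 and 145 CPM in DMSO (log2 change -0.61 ± 0.13, adjusted p = 0.00319). The groups did not overlap in either gene, but the list's count became 3 without either DMSO library and 6 without EPZ-6438 1. Glycolysis genes gave 1 higher (3.57%, against 5.35% of all genes) and 4 lower (14.3%, against 4.85%) of 28 (median -0.16). The higher one was PFKFB3, which makes an activator of phosphofructokinase, with 24.8 and 21.8 CPM after EPZ-6438, against 16.9 and 16.3 CPM in DMSO (log2 change 0.49 ± 0.14, adjusted p = 0.0278), and its call was lost without DMSO 1, DMSO 2 or EPZ-6438 1. LDHA, lactate dehydrogenase A, had 22.2 and 25.2 CPM after EPZ-6438, against 36.7 and 38.8 CPM in DMSO (log2 change -0.67 ± 0.12, adjusted p = 0.000632). PGAM1 had 156 and 155 CPM after EPZ-6438, against 234 and 243 CPM in DMSO (log2 change -0.62 ± 0.11, adjusted p = 0.00106). PGAM2, the muscle form of the same mutase and not in the list, was called higher with 42.6 and 38.8 CPM after EPZ-6438, against 17.2 and 16.3 CPM in DMSO (log2 change 1.28 ± 0.14, adjusted p = 1.21e-05). Without either DMSO library or EPZ-6438 2 the glycolysis list had 2 lower calls. Ribosomal protein genes gave 0 calls by edgeR among 73 (median -0.10), with 5 lower at an unadjusted p under 0.05 and 0 by DESeq2, and 4 were called lower without EPZ-6438 1.

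Clustered protocadherins, germline genes and suppressor genes completed the lists. Of 52 protocadherins 3 were called higher (5.77%, near the 5.35% of all genes) and 0 lower (median 0.45), and 32 had both EPZ-6438 libraries above both DMSO libraries, an order that 29.3% of all tested genes showed; the calls numbered 0 without DMSO 1, without DMSO 2 or without EPZ-6438 1. Their shared exons make single values uncertain. Of 37 tested cancer-testis and germline genes 0 were called in either direction by edgeR (against 10.2% of all genes), with 1 lower at an unadjusted p under 0.05, and 0 by DESeq2 (median 0.00). Some members, such as MAEL, had 0 counts in all 4 libraries and passed the filter through other groups of the series. In a list of 11 tested genes described in the literature as EZH2-repressed suppressors of neuroblastoma 3 were called higher (27.3%, against 5.35% of all genes; median 0.54), NGFR and TIMP3 among them. TIMP3, an inhibitor of matrix proteases, had 19.2 and 17.9 CPM after EPZ-6438, against 12.8 and 12.1 CPM in DMSO (log2 change 0.57 ± 0.16, adjusted p = 0.0245), and its call was lost whichever library was left out. CLU, or clusterin, of the same list, had 189 and 160.0 CPM after EPZ-6438, against 197 and 196 CPM in DMSO (log2 change -0.17 ± 0.15, adjusted p = 0.508). CADM1, an adhesion protein, had 327 and 396 CPM after EPZ-6438, against 324 and 306 CPM in DMSO (log2 change 0.20 ± 0.11, adjusted p = 0.298), and neither was called.

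The same drug and dose in IMR5-75 served to ask which changes differed between the lines. There 316 genes were called (1.98%), 261 higher (1.63%) and 55 lower (0.344%), which became 29 and 3 without IMR5-75 DMSO 2, 58 and 2 without IMR5-75 EPZ-6438 1, and 95 and 2 without IMR5-75 EPZ-6438 2. A fit of the difference itself, the change in Be(2)-C minus the change in IMR5-75, called 190 genes (1.19%), 99 more upward in Be(2)-C (0.62%) and 91 more downward (0.57%). Those counts became 27 and 21 without Be(2)-C DMSO 1, 30 and 19 without Be(2)-C DMSO 2, 31 and 22 without IMR5-75 EPZ-6438 1, 47 and 57 without IMR5-75 EPZ-6438 2, and 49 and 36 without IMR5-75 DMSO 2.

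Cell-cycle genes with a called line difference all fell further in Be(2)-C. Of 60 replication genes 10, and of 93 mitosis genes 10, had such a call. Over all tested genes 0.57% had a call in that direction. These list counts were not made with 1 library left out. The median difference was -0.41 for replication and -0.48 for mitosis genes, against -0.01 for all genes, and the medians in IMR5-75 were -0.19 and -0.16. For GINS2, IMR5-75 had 34.4 and 32.5 CPM after EPZ-6438, against 33.6 and 40.5 CPM in DMSO (log2 change -0.14, adjusted p = 0.616; line difference -1.06 ± 0.17, adjusted p = 0.00293). For PCNA, it had 222 and 217 CPM after EPZ-6438, against 243 and 231 CPM in DMSO (line difference -0.85 ± 0.15, adjusted p = 0.00662), and for NUSAP1 98.9 and 113 CPM after EPZ-6438, against 121 and 122 CPM in DMSO (line difference -0.84 ± 0.16, adjusted p = 0.00981). CCNA2 had 205 and 214 CPM after EPZ-6438, against 219.8 and 219 CPM in DMSO in IMR5-75 (line difference -0.92 ± 0.16, adjusted p = 0.00658). Each of these genes was thus close to 2-fold lower in Be(2)-C, with a smaller change in IMR5-75. E2F1 was lower in both lines, in IMR5-75 with 159 and 140.3 CPM after EPZ-6438, against 181 and 242 CPM in DMSO (log2 change -0.50, adjusted p = 0.0482), and its line difference was not called (line difference -0.62 ± 0.18, adjusted p = 0.12).

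**Figure D5:**
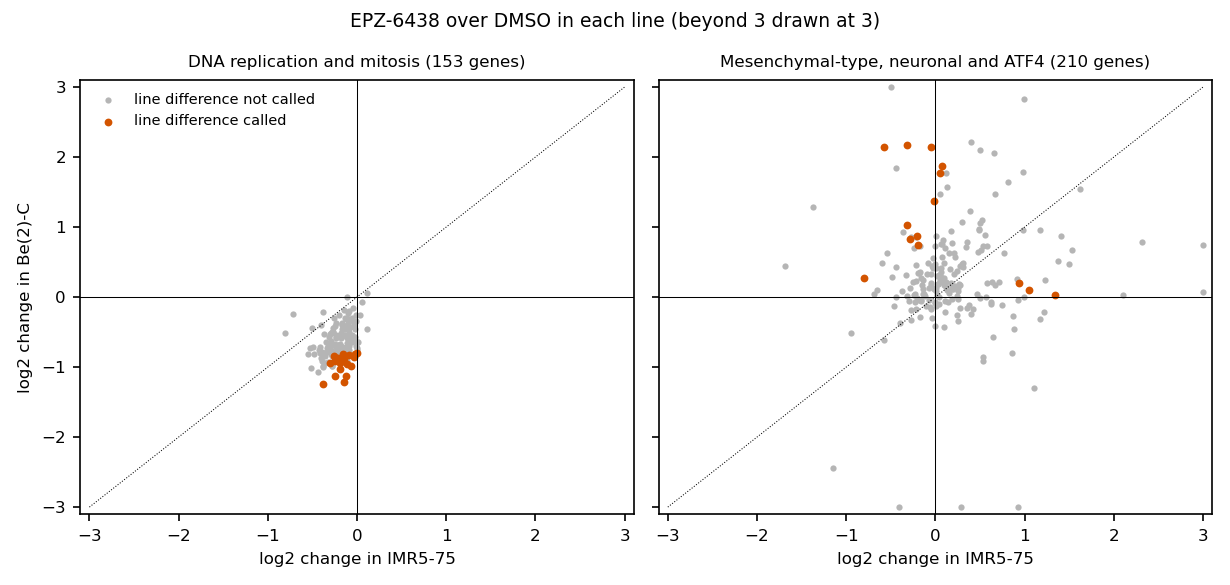
Points are tested list members, with the log2 change of EPZ-6438 over DMSO in IMR5-75 on the x axis and in Be(2)-C on the y axis (beyond 3 drawn at 3); orange points have a called line difference and the dotted diagonal marks equal change. The 153 replication and mitosis genes lie below the diagonal for the most part, and the called genes of the other lists lie on both sides of it.

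Several genes that rose from a low level in Be(2)-C were already high in IMR5-75. SLC25A24 had 174 and 198 CPM after EPZ-6438, against 177 and 171 CPM in DMSO in IMR5-75 (line difference 3.68 ± 0.54, adjusted p = 0.00137). F2R had 80.7 and 85.2 CPM after EPZ-6438, against 93.4 and 81.8 CPM in DMSO there (line difference 4.06 ± 0.79, adjusted p = 0.0115). YES1 had 245 and 277 CPM after EPZ-6438, against 230.0 and 204 CPM in DMSO (line difference 2.03 ± 0.30, adjusted p = 0.00148). FN1 had 153 and 163 CPM after EPZ-6438, against 175 and 143 CPM in DMSO (line difference 1.38 ± 0.21, adjusted p = 0.00189). REST had 82.8 and 89.7 CPM after EPZ-6438, against 88.8 and 75.5 CPM in DMSO (line difference 1.80 ± 0.33, adjusted p = 0.00803). In these 5 genes IMR5-75 stood above both Be(2)-C groups and none was called within IMR5-75. SEL1L3 rose in both lines, in IMR5-75 with 7.65 and 9.68 CPM after EPZ-6438, against 4.64 and 4.29 CPM in DMSO (log2 change 0.95, adjusted p = 0.0144), and more in Be(2)-C (line difference 3.50 ± 0.46, adjusted p = 0.000746). HMOX1 had 8.04 and 7.87 CPM after EPZ-6438, against 13.05 and 12.2 CPM in DMSO in IMR5-75 (log2 change -0.67, adjusted p = 0.27; line difference 2.86 ± 0.42, adjusted p = 0.00137). INHBE had 21.5 and 19.9 CPM after EPZ-6438, against 25.3 and 36.7 CPM in DMSO there (log2 change -0.58, adjusted p = 0.196; line difference 2.72 ± 0.37, adjusted p = 0.000746). NGFR had 3.23 and 2.52 CPM after EPZ-6438, against 1.77 and 5.55 CPM in DMSO in IMR5-75 (line difference 2.49 ± 0.51, adjusted p = 0.017).

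Other genes rose in IMR5-75, with a called line difference below 0. ADCYAP1, a neuropeptide of the VIP family, had 9.38 and 7.79 CPM after EPZ-6438, against 1.47 and 1.35 CPM in DMSO in IMR5-75 (line difference -2.38 ± 0.25, adjusted p = 6.86e-05), while Be(2)-C had 59.6 and 58.6 CPM after EPZ-6438, against 48.4 and 53.9 CPM in DMSO. FOS, an immediate early factor, had 21.99 and 26.4 CPM after EPZ-6438, against 2.36 and 4.63 CPM in DMSO in IMR5-75 (line difference -3.36 ± 0.45, adjusted p = 0.000746), while Be(2)-C had 10.8 and 21.4 CPM after EPZ-6438, against 21.6 and 25.5 CPM in DMSO. HES1, a target of NOTCH, had 3.07 and 2.67 CPM after EPZ-6438, against 1.03 and 0.757 CPM in DMSO in IMR5-75 (line difference -1.96 ± 0.39, adjusted p = 0.014), while Be(2)-C had 12.7 and 9.90 CPM after EPZ-6438, against 15.5 and 12.3 CPM in DMSO. MAP7, a microtubule protein, had 2.36 and 1.18 CPM after EPZ-6438, against 0.295 and 0.421 CPM in DMSO in IMR5-75 (line difference -2.50 ± 0.45, adjusted p = 0.00658), while Be(2)-C had 53.9 and 51.4 CPM after EPZ-6438, against 64.2 and 57.4 CPM in DMSO. In all 4 genes both DMSO libraries of Be(2)-C stood above both of IMR5-75, all 4 were called higher within IMR5-75, and none was called within Be(2)-C. Changes shared by the lines included IGFBP3, with 30.03 and 29.1 CPM after EPZ-6438, against 12.5 and 7.07 CPM in DMSO in IMR5-75 (log2 change 1.59, adjusted p = 0.00021), CDH11, with 69.1 and 70.2 CPM after EPZ-6438, against 42.8 and 36.2 CPM in DMSO (log2 change 0.82, adjusted p = 0.00303), and LDHA, with 734 and 707 CPM after EPZ-6438, against 1238 and 1261 CPM in DMSO (log2 change -0.80, adjusted p = 0.000226); none of their line differences was called.

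Set directly against DAC in the same line, EPZ-6438 left 656 genes at different levels (4.11%), 345 higher (2.16%) and 311 lower (1.95%). Dose was equal but exposure was 96 h for EPZ-6438 and 72 h for DAC, so drug and time cannot be told apart. The counts became 159 and 178 without DAC 1, 149 and 163 without DAC 2, and 164 lower without EPZ-6438 2. Germline genes stood lower than after DAC, and of these 23 of 37 tested were called lower (median difference -3.43). The filter on low counts used all libraries of the series, so members could pass it through DAC-treated groups alone. The share and the median depend on that filter. DAZL, an RNA-binding protein of germ cells, had 1 count over the EPZ-6438 libraries and 288 over the DAC libraries (ratio 0.00365, 95% exact interval 9.21e-05 to 0.0205). MAEL, a piRNA pathway protein, had 0 counts after EPZ-6438 against 116 after DAC, at least 36.8-fold lower against a floor of 3 counts over the group. MAGEA6, a cancer-testis antigen, had 0 against 94 counts (at least 29.8-fold lower). MAGEA copies can exchange reads. TDRD12, also of the piRNA pathway, had 0 and 0.0925 CPM after EPZ-6438 against 9.05 and 8.71 CPM after DAC. The histone gene HIST1H4F had 0 counts after EPZ-6438 against 371 after DAC (at least 118-fold lower) and 2 counts in DMSO. The histone list as a whole had a median difference of -0.01, with 3 of 60 called lower.

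Several genes stood higher after EPZ-6438 than after DAC. SEL1L3 had 5.99 and 6.39 CPM after EPZ-6438 against 0.905 and 1.67 CPM after DAC (log2 difference 2.28 ± 0.27, adjusted p = 1.42e-05). SLFN5, an interferon-linked gene, had 3.27 and 3.70 against 0.411 and 0.648 CPM (log2 difference 2.71 ± 0.48, adjusted p = 0.00164). GRIA2, a glutamate receptor subunit, had 2.81 and 3.79 against 0.905 and 0.556 CPM (log2 difference 2.14 ± 0.43, adjusted p = 0.00408). PCDH7, a protocadherin, had 13.1 and 12.96 against 3.54 and 3.06 CPM (log2 difference 1.97 ± 0.21, adjusted p = 4.72e-06). CDH11 had 13.5 and 14.8 against 4.11 and 3.43 CPM (log2 difference 1.90 ± 0.20, adjusted p = 2.54e-06). RET had 299 and 207 against 130.5 and 107 CPM (log2 difference 1.09 ± 0.17, adjusted p = 0.000436). LDHA was lower, with 22.2 and 25.2 CPM after EPZ-6438 against 77.7 and 79.1 CPM after DAC (log2 difference -1.73 ± 0.11, adjusted p = 2.1e-09). In these genes the EPZ-6438 and DAC libraries did not overlap. They were named among called genes, so with 2 libraries a group that order was largely set by the choice. The share of all genes with such an order was not counted for this comparison. Among cell-cycle genes, 9 of 60 replication and 12 of 93 mitosis genes were called lower than after DAC and 0 higher. Over all tested genes 1.95% were called lower. The median differences were -0.24 and -0.27 against 0.00 over all genes. These list counts, too, were not made with 1 library left out. CDC45 had 51.8 and 59.6 CPM after EPZ-6438 against 83.7 and 87.3 CPM after DAC (log2 difference -0.62 ± 0.11, adjusted p = 0.00152). NUSAP1 had 151 and 154 against 243 and 229 CPM (log2 difference -0.63 ± 0.11, adjusted p = 0.00137).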

How the data were processed

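Total RNA depleted of ribosomal RNA was sequenced as single-end reads from directional libraries, per the labels' protocols. The authors deposited raw counts per gene and library. The submitters' processing notes name TopHat2 2.0.5, HTSeq 0.5.3p9, DESeq2 and build hg19. Which annotation and strand setting HTSeq used is not stated there, so reads of overlapping and antisense genes may not be told apart.

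Counts were scaled by TMM and filtered with filterByExpr in edgeR 4.0.16 (R 4.3.3), and all 16 libraries in 8 groups shared 1 quasi-likelihood fit with 8 residual degrees of freedom. Library totals ran from 9539557 to 14032155 counts, and 3 counts equalled 0.272 to 0.278 CPM in the 4 libraries compared. The line difference and EPZ-6438 against DAC were contrasts of that fit. DESeq2 1.42.0, its size factors, no low-count filter, smaller fits, the replicate number as a block and leaving out each library were alternatives. Transcript length and GC content came from GENCODE 29, promoters from RefSeq's table for GRCh38.p14, in which 12034 of 15967 tested genes were matched and 8420 had 1 listed start.

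Gene lists, markers and the comparison itself were chosen with earlier results of these data known. Genes were named by rule: the largest called changes above a mean log2 CPM of 1 with no overlap between the groups, the smallest p-values, per list up to 4 called members and up to 2 abundant members not called, fixed Polycomb and cell-cycle genes, genes at 3 counts or fewer in a group, and the 8 highest and 8 lowest called values of the line difference and of EPZ-6438 against DAC. Same-numbered EPZ-6438 and DMSO libraries of Be(2)-C did not deviate together.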

Additional observations from a re-analysis of the deposited data

Results flagged for a closer look

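For 37 of the genes named, the change after EPZ-6438 differed between Be(2)-C and IMR5-75 by edgeR's test of the difference (adjusted p under 0.05 over all tested genes). The values are the log2 change in Be(2)-C minus that in IMR5-75. Those whose levels in both lines are given with the line comparison had differences of 4.06 for F2R, 3.68 for SLC25A24, 3.50 for SEL1L3, 2.86 for HMOX1, 2.72 for INHBE, 2.49 for NGFR, 2.03 for YES1, 1.80 for REST and 1.38 for FN1. On the other side they were -0.84 for NUSAP1, -0.85 for PCNA, -0.92 for CCNA2, -1.06 for GINS2, -1.96 for HES1, -2.38 for ADCYAP1, -2.50 for MAP7 and -3.36 for FOS. Among further genes that rose in Be(2)-C, the difference was 2.51 for DNAH6, 2.47 for GRB10, 2.28 for CASP6, 2.16 for CPE, 2.05 for SERPINE2, 1.92 for ULBP1, 1.72 for COL4A2, 1.65 for PAK3, 1.39 for FSTL1, 1.23 for CHODL, 1.12 for PFKFB3 and 1.00 for SATB1. Among further genes that fell, it was -0.998 for CDKN2C, -0.94 for WDR76, -0.86 for CHAF1B, -0.75 for UBE2T, -0.72 for RRM2, -0.68 for KIF20A and -0.63 for CDC45. HIST1H1B had a fitted difference of -4.81, but IMR5-75 held only 0.867 and 0.393 CPM of it after EPZ-6438 against 0.0737 and 0 CPM in DMSO, so the fitted value depends on a prior count and is no bound.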

How the results depend on the processing

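No named gene changed direction under an alternative while called, and 0 genes were called in the opposite direction in Be(2)-C in a fit without 1 library. Leaving out 1 library at a time gave 287 to 599 genes higher and 291 to 659 lower in Be(2)-C, 29 to 258 higher and 2 to 65 lower in IMR5-75, 27 to 129 and 19 to 97 for the line difference, and 149 to 248 and 163 to 266 for EPZ-6438 against DAC. In each such fit the lone library is assumed to vary like the other groups. Without the low-count filter, IMR5-75 had 507 genes higher and 233 lower and the line difference 208 and 217. The DESeq2 Wald test gave 86 genes lower in IMR5-75 and 153 lower for the line difference. Fits of only the groups compared gave 530 higher in Be(2)-C and 122 lower in IMR5-75, and a fit of only the line gave 29 lower in IMR5-75. The causes were not tested. With the replicate number as a block, calls were 736 higher and 661 lower in Be(2)-C, 217 and 37 in IMR5-75, 81 and 61 for the line difference, and 308 and 273 against DAC. Same-numbered libraries correlated at -0.007 in Be(2)-C, 0.059 for EPZ-6438 with DAC and -0.235 in IMR5-75, over 10052 genes. A crossed pairing in IMR5-75, added after seeing the data, gave 273 higher and 58 lower. With 2 libraries a group, genes under about 1 CPM rest on few counts, and 0 of 2853 genes at that level in DMSO were called lower.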
